A study of Drosophila melanogaster with 6 samples.

Results

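Peaks of an antibody against N6-methyladenosine (m6A) that lie near the end of long genes were examined in heads of fruit flies (Drosophila melanogaster). A peak was included when its midpoint lay in exactly 1 protein-coding gene span longer than 10 kb, on the strand that held most of the peaks of that gene, and in the last 20% of the span. This gave 3424 of 28206 peaks in 3 lists, with 2162 of 14329 peaks in replicate 1, 687 of 7232 in replicate 2 and 575 of 6645 in replicate 3. They lay in 602 genes. The peaks were chosen by measured values, their position and strand, so where they lie is described here without a test, while reads, width and overlap between lists were not used in the choice.

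The series holds 3 m6A-CLIP libraries and 3 input libraries. In m6A-CLIP, fragments of poly(A) RNA are crosslinked by ultraviolet light to the antibody and recovered with it, and the input is RNA that was not enriched. Each deposited list combines 1 CLIP library with the input of the same number. All libraries share the genotype w1118cs, both sexes and a standard diet. They came from heads of flies kept at 25 °C with 12 h of light and 12 h of dark, about 800 heads and 20 ug of poly(A) RNA per biological replicate. The age of the flies is not given in the sources used here, and no m6A-deficient flies were analysed here, so a peak shows recovery with the antibody and not methylation as such.

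The label calls the cell type neurons, but whole heads hold other cells too. Counted at any position in the span, 8 of 9 neuronal markers had a peak in each list, and so did 5 of 7 markers of glia, 7 of 7 of photoreceptors, 7 of 7 of muscle and 6 of 7 of fat body, beside 11.7% of all 13962 protein-coding genes. Library totals are not in the lists, so depth is unknown. A peak had at least 7, 25 and 7 CLIP reads per bin of 50 bp in replicates 1, 2 and 3, so levels are compared within a list.

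m6A is written onto mRNA by a methyltransferase complex with Mettl3 and Mettl14 at its core and is read by YTH-domain proteins. In mammals it is known to gather around stop codons and in 3′ untranslated regions, while maps from Drosophila have placed more of it in 5′ untranslated regions. In the fly nervous system many long genes are also transcribed with extended 3′ untranslated regions. Neither exon maps nor sequence of the genome were used here, so the last 20% of a span can hold introns, coding exons and untranslated regions alike, and no peak sequence is printed.

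Peaks were denser at the end of long genes than in the middle, and less dense there than at the start. The last 20% of the span held 32.7% of the long-gene peaks of replicate 1 (2162 of 6611, 95% Wilson interval 31.6 to 33.8), 20.2% of those of replicate 2 (687 of 3393, 18.9 to 21.6) and 21.1% of those of replicate 3 (575 of 2729, 19.6 to 22.6). The mean was 24.7% ± 6.97 (SD, n = 3 lists), against 31.3% ± 0.144 in the middle 60% and 44.1% ± 6.84 in the first 20%. These intervals cover counting error only. Replicate 1 stood above the other lists at the end and below them at the start.

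The length that could hold such a peak did not differ much between the ends. Of the last 20% of these genes, 95.7% lay in a single protein-coding span, 10.3 Mb in all, against 30.4 Mb in the middle and 10.1 Mb in the first 20%. The end made up 20.3% of this usable length. Its share of the long-gene peaks was near that value in replicates 2 and 3, and above it in replicate 1. Per Mb of that length there were 209.6, 66.6 and 55.8 peaks at the end in replicates 1, 2 and 3, against 67.8, 35.0 and 28.2 in the middle and 236, 162 and 128 at the start. The end was therefore denser than the middle and less dense than the start in each list.

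**Figure D1:**
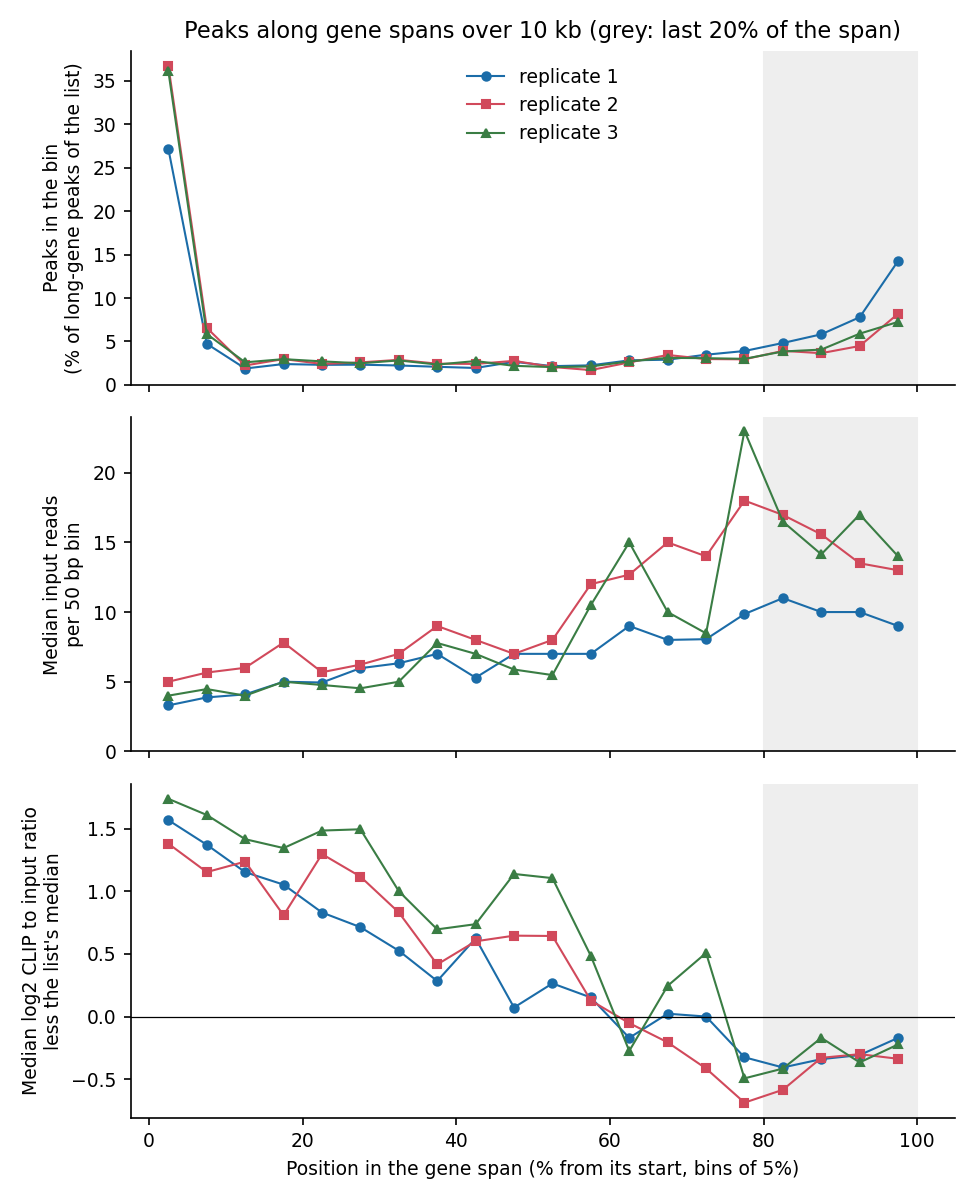
Position along gene spans over 10 kb (x, percent of the span from its start, in bins of 5%) against the share of the long-gene peaks of a list (top), the median input reads per 50 bp bin (centre) and the median log2 CLIP to input ratio less the list's median (bottom), with 1 line per replicate. The last bin holds 14.3%, 8.19% and 7.26% of the peaks in replicates 1, 2 and 3, and the ratio is below 0 in each bin of the grey last 20%.

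Within the last 20%, peaks gathered at its far side. The last 5% of the span held 14.3%, 8.19% and 7.26% of the long-gene peaks of replicates 1, 2 and 3, against 4.83%, 3.92% and 3.85% in the bin from 80 to 85%. The median distance from a peak to the end of the span was 1652, 1924 and 1684 bp. A share of 18.0%, 16.3% and 16.2% of the end peaks lay within 500 bp of it, and 16.3%, 20.7% and 17.2% lay 5000 bp or more away. Next to the limit at 80% of the span in replicate 1, a peak of csw at 80.1% of its span had 7 CLIP reads per bin and was included, and a peak of shot at 79.98% had 9 and was not. In replicate 2 the nearest peaks were those of foxo at 80.2% with 27 reads and of TP53INP at 79.95% with 41.5 reads, and in replicate 3 those of Ggamma30A at 80.04% with 9 reads and of apolpp at 79.93% with 10.5 reads.

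The larger share of end peaks in replicate 1 was not seen among its peaks with the lowest deposited p-values. When each list was cut to the length of the shortest by the lowest deposited p-values, a choice made after seeing the data, the last 20% held 19.1%, 19.0% and 21.0% of the long-gene peaks of replicates 1, 2 and 3. These shares are near the 20.3% of the usable length that lies at the end. When only the better-ranked 50% by p-value was kept in each list, the shares were 20.1%, 14.5% and 21.6%. The peaks of replicate 1 that ranked beyond an equal list length were thus more often at the gene end than the others in that list. In replicate 1 the median deposited p-value was higher at the end than in the middle or at the start, so such a cut removes end peaks more often. The highest p-value kept also differed between the deposited lists. The cut therefore cannot tell the length of a list from the rank of its end peaks.

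**Figure D2:**
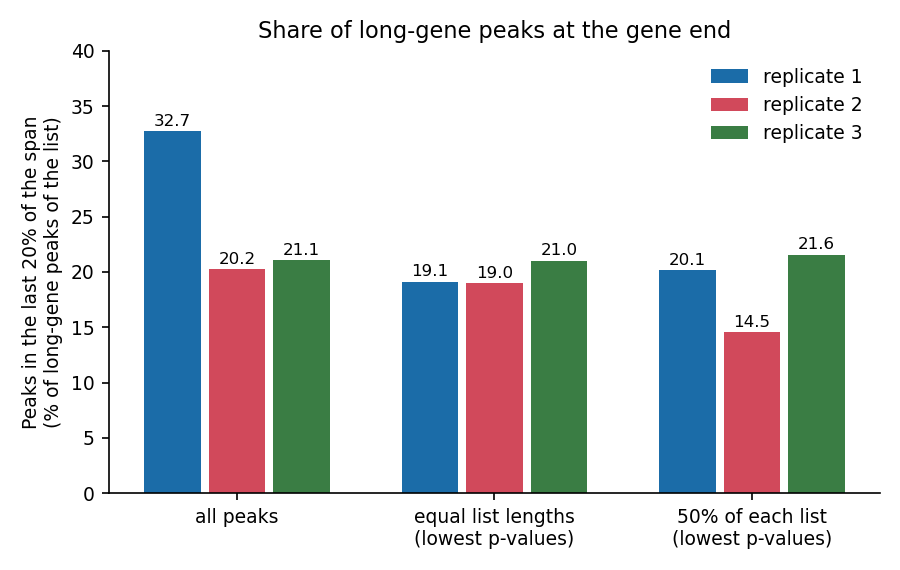
Share of the long-gene peaks of each list that lie in the last 20% of the span (y, percent), for all peaks, for lists of equal length and for the 50% ranked best by p-value, with 1 bar per replicate. Replicate 1 stands at 32.7% with all peaks and at 19.1% with equal list lengths, beside 19.0% and 21.0% in the other lists.

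Peaks at the end had slightly fewer CLIP reads than other long-gene peaks. Their median was 8.5, 33 and 9 CLIP reads per bin in replicates 1, 2 and 3, against 9, 37 and 10 in the middle and 12, 41.1 and 10.3 at the start. The values at the end were lower in 3 of 3 lists. On the scale of log2(reads + 1) the difference was −0.12 ± 0.04 (SD, n = 3 lists) from the middle and −0.31 ± 0.14 from the start. In a two-sided exact sign-flip permutation test each gave p = 0.25, also 0.25 after Benjamini-Hochberg adjustment over 10 comparisons. That is the smallest p that 3 lists allow, and it applies to each of the 10 comparisons of reads, width and overlap below. None of them can pass 0.05 in this design.

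Input reads went the other way and, over all peaks, differed more. The median was 9.52, 14.5 and 15 input reads per bin at the end, against 7, 9 and 7 in the middle and 3.46, 5 and 4 at the start. On the log2 scale the end exceeded the middle by 0.67 ± 0.30 (SD, n = 3 lists) and the start by 1.43 ± 0.23, in 3 of 3 lists each (exact sign-flip p = 0.25, adjusted 0.25). Both differences were larger than their spread between lists. Input reads are known here only where a peak was called, so these values do not describe coverage outside peaks. In whole heads, more cells of a type and more RNA per cell cannot be told apart.

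The log2 CLIP to input ratio, taken after adding 1 to both read values, was therefore low at gene ends. Less the median of all peaks of the list, the median ratio was −0.26, −0.37 and −0.30 at the end in replicates 1, 2 and 3, against 0.12, 0.40 and 0.83 in the middle and 1.52, 1.32 and 1.72 at the start. The difference of the end was −0.76 ± 0.38 (SD, n = 3 lists) from the middle and −1.83 ± 0.16 from the start, lower in 3 of 3 lists (exact sign-flip p = 0.25, adjusted 0.25). CLIP reads were fewer than input reads in 51.2%, 9.75% and 68.2% of end peaks, against 38.4%, 12.6% and 41.5% of middle peaks and 5.39%, 2.01% and 8.33% of start peaks. The libraries were not scaled, so 0 on the unadjusted scale is no baseline. A ratio more than 2 above the list's median was reached by 1.39%, 4.08% and 5.22% of end peaks, against 26.5%, 19.7% and 33.1% of start peaks.

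**Figure D3:**
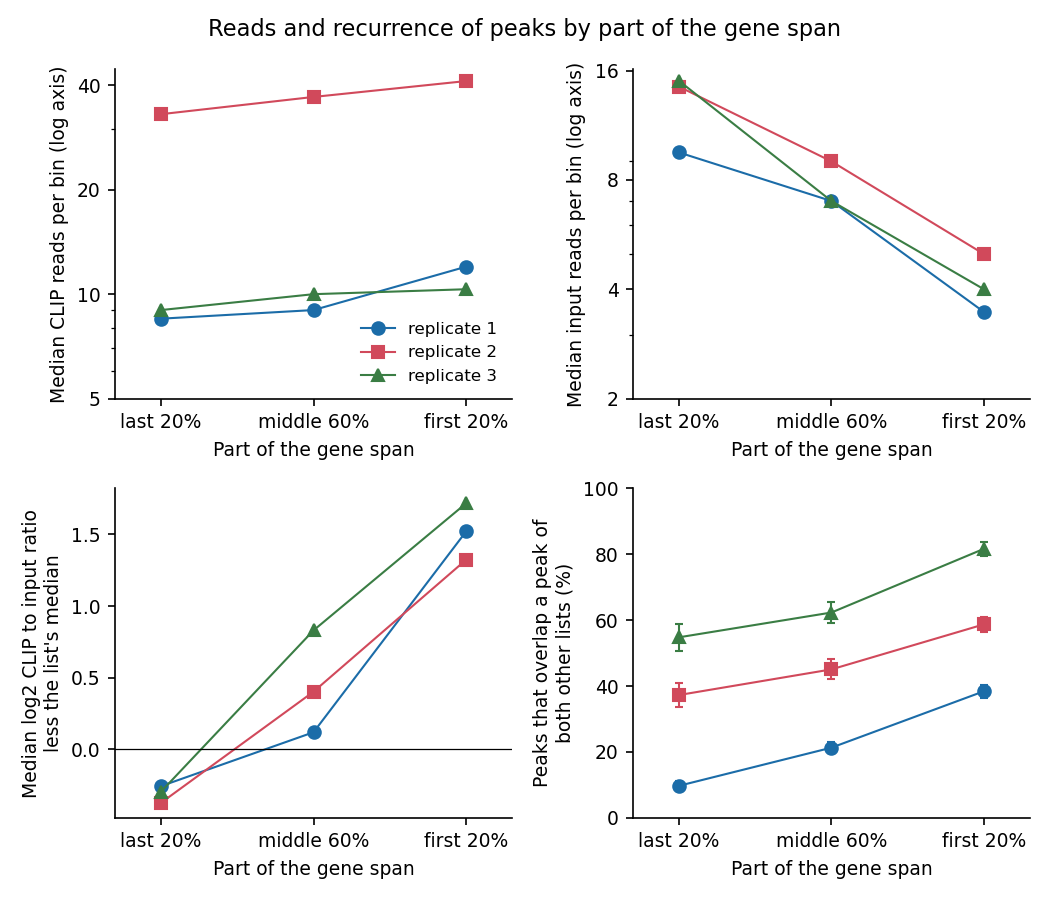
Median CLIP reads per bin and median input reads per bin (log axes), median log2 CLIP to input ratio less the list's median, and share of peaks that overlap a peak of both other lists (y, percent, with 95% Wilson intervals), for the last 20%, the middle 60% and the first 20% of gene spans over 10 kb (x), with 1 line per replicate. In each list the last 20% has the most input reads, the lowest ratio and the lowest overlap of the 3 parts.

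The ratio was also compared within genes. In genes with peaks in both parts, the ratio at the end differed by −0.27 from the middle and by −1.03 from the start. The excess of input reads at the end shrank to 0.12 over the middle and 0.40 over the start. CLIP reads at the end differed by −0.08 from the middle and by −0.45 from the start. Within genes the mean gap to the start was thus larger in CLIP reads than in input reads, though not in replicate 3. The part of input reads in the lower CLIP reads at the end was looked at in peaks with a like number of input reads. In 13 ranges of input with at least 20 peaks of both kinds in a list, end peaks had fewer CLIP reads than start peaks in 13, with log2 differences from −0.64 to −0.21. Against middle peaks they had fewer in 11 of 16 ranges, with differences from −0.29 to 0.14. These ranges were chosen after seeing the data and carry no test.

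Peaks at the end recurred less often. A peak of both other lists was overlapped on the same strand by 9.71% of the end peaks of replicate 1 (210 of 2162), 37.3% of those of replicate 2 (256 of 687) and 54.8% of those of replicate 3 (315 of 575), beside 23.7%, 50.1% and 69.9% of all long-gene peaks. The shares were 21.3%, 45.1% and 62.3% in the middle and 38.4%, 58.7% and 81.7% at the start. The difference of the end was −8.97 ± 2.27 percentage points from the middle and −25.7 ± 3.77 from the start (SD, n = 3 lists), lower in 3 of 3 lists (exact sign-flip p = 0.25, adjusted 0.25). With peaks of 1 bin only, these differences were −4.53 and −5.59 points, the smallest of all alternatives. Within genes that had both parts they were −17.9 and −39.1 points, the largest. The gap to the middle was not seen in each list when 1 list was left out and a peak had to overlap the other remaining one. Without replicate 2 the difference was −11.2 points in replicate 1 and 1.77 in replicate 3, with a mean of −4.71. Without replicate 3 it was −13.7 in replicate 1 and 3.43 in replicate 2, with a mean of −5.12.

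Recurrence and position were linked in each list. Among long-gene peaks that overlapped both other lists, the last 20% held 13.4%, 15.1% and 16.5% in replicates 1, 2 and 3. Among those that overlapped neither, it held 42.4%, 29.4% and 34.6%. In replicate 1, 1651 end peaks (76.4%) overlapped neither other list, and they had a median of 8 CLIP reads per bin against a minimum of 7. The 210 that overlapped both had a median of 14.4 CLIP reads and 15.6 input reads. End peaks that recurred had a lower ratio than those that did not. Less the list's median it was −0.41, −0.69 and −0.49 in end peaks that overlapped both other lists, against −0.17, 0.29 and 0.42 in those that overlapped neither. At the start the order was the opposite, with 1.91, 1.52 and 1.79 against 1.15, 0.79 and 1.34. This contrast was not tested.

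More of the end peaks were a single bin. Such peaks of 50 bp made up 72.2%, 66.2% and 71.8% of them, against 64.9%, 60.2% and 68.3% in the middle and 48.6%, 52.2% and 59.9% at the start. Their share exceeded the middle by 5.64 ± 1.92 and the start by 16.5 ± 6.24 percentage points (SD, n = 3 lists, exact sign-flip p = 0.25, adjusted 0.25). The mean width did not follow, with 96.3, 107.4 and 90.2 bp at the end, against 99.3, 102.6 and 87.0 bp in the middle and 117.7, 106.0 and 87.2 bp at the start. Peaks of 300 bp or more made up 4.76%, 6.84% and 4.00% at the end, against 4.18%, 5.09% and 3.15% in the middle and 7.36%, 4.74% and 2.08% at the start. In replicates 2 and 3 the end thus held more single-bin and more wide peaks than the other classes. At 28 end intervals that were identical across the 3 lists, the CLIP reads of list pairs ranked alike only weakly, with Spearman values of 0.363, 0.151 and 0.408 for replicates 1 and 2, 1 and 3, and 2 and 3. Input reads of the same intervals gave 0.894, 0.914 and 0.953. These are descriptions across intervals, which share genes and libraries. Identical ends in each list also make the intervals a selected set, with CLIP reads cut off below at the minimum of each list.

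Of 1413 long genes with a usable peak, 602 had an end peak in some list and 146 (10.3%) had one in each list. A start peak in each list was found in 681 genes (48.2%) and a middle peak in each list in 267 (18.9%). An end peak was seen in replicate 1 alone in 274 genes, in replicate 2 alone in 27 and in replicate 3 alone in 20. Of the 146 genes, 85 also had a start peak in each list, which is 58.2% of them beside 48.2% of all these long genes. Another 29 had no start peak in any list, among them apolpp, Atpalpha, Moe, rdgB, Syp, ACC and Pdp1. Of all 1413 long genes, 1145 (81.0%) had a start peak in some list, so lacking one was about as common among all of them. In 8 genes, CG1677, CG44774, CG7985, HmgZ, ND-15, Pvf1, blot and tun, the last 20% held the only usable peaks of the span in any list. The orientation of these 8 genes thus rests on their end peaks themselves, 3 to 9 per gene. The share of all long genes with peaks in 1 part alone was not counted.

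Genes were ordered by the lowest of their 3 numbers of end peaks, so that a gene with many in 1 list alone, such as Msp300 with 31 in replicate 1, does not lead. IA-2, a receptor-type protein tyrosine phosphatase family member of dense-core vesicles, had 20, 21 and 22 end peaks in replicates 1, 2 and 3. norpA, the phospholipase C of fly phototransduction, had 18, 22 and 27. Neither had its highest number in replicate 1, although that list had the most end peaks in all. A number of peaks takes no account of their width, so it is no measure of signal. For example, 1 region of norpA lay in a peak of 46 bins in replicate 1, of 15 in replicate 2 and of 1 in replicate 3. rdgA, the photoreceptor diacylglycerol kinase, had 28, 14 and 8. Sap47, a synapse-associated protein, had 10, 15 and 9, and Cam, the calcium sensor calmodulin, had 12, 19 and 7. ps (pasilla), a splicing regulator, had 21, 14 and 8. In these 6 genes the end held between 47.1% and 93.3% of the peaks of the span. The other 4 were Lk6, a protein kinase, with 7, 8 and 11, CycG, cyclin G, with 7, 8 and 9, para, the voltage-gated sodium channel, with 12, 10 and 6, and Fas1, a fasciclin adhesion protein, with 6, 9 and 12.

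Of these 10 genes, 9 had a median ratio at their end peaks below the list's median in each list, and 1, para, lay above it in each. The median CLIP reads per bin of norpA were 13.4, 36.8 and 9 and its input reads 29.5, 26.3 and 22.8, and its ratio less the list's median was −0.97 ± 0.28 (SD, n = 3). That of IA-2 was −0.82 ± 0.06. At para the end peaks had 9.61, 35.5 and 7 CLIP reads and 4.79, 3.87 and 3.71 input reads, and the ratio was 1.14 ± 0.42. The CLIP reads of para lay within the range of the other genes in replicates 1 and 2 and below it in replicate 3, and its input reads were the lowest of the 10 in each list.

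**Figure D4:**
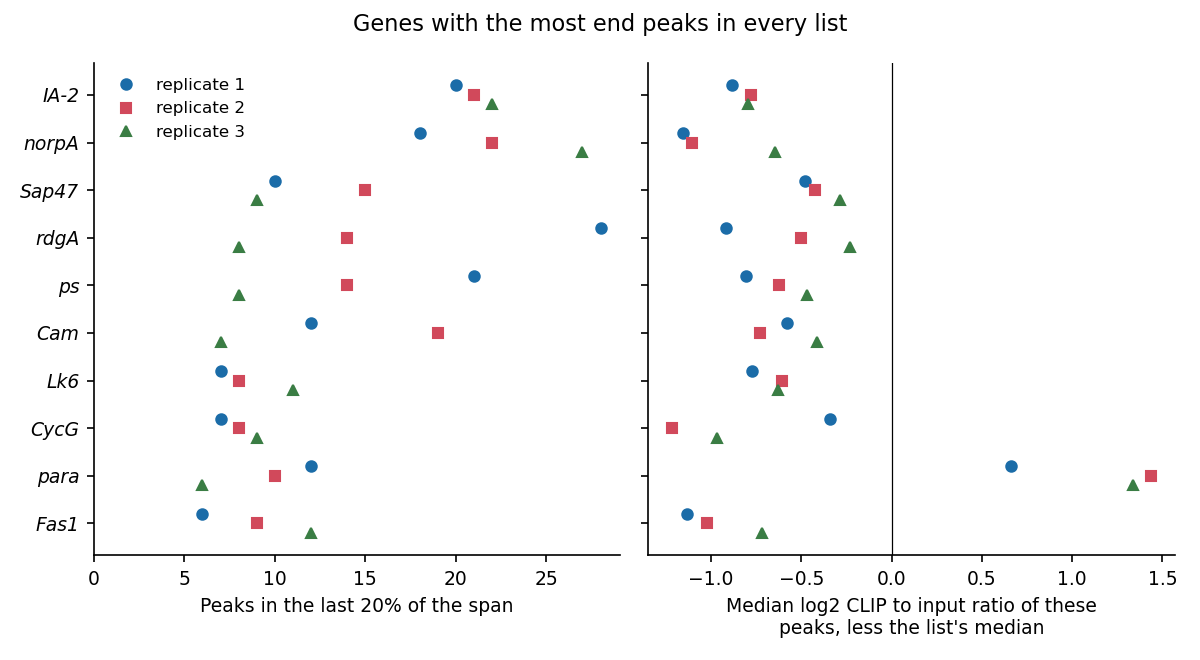
Number of peaks in the last 20% of the span (left) and median log2 CLIP to input ratio of these peaks less the list's median (right) for the 10 genes with the highest minimum number of end peaks over the lists, with 1 marker per replicate. para lies above 0 in each replicate, between 0.66 and 1.43, and the other 9 genes lie below 0.

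Bins at the end that were called in each list for the same gene formed 316 regions in 112 genes, 32650 bp in all, of which 210 were a single bin. Regions inside a wide peak share the values of that peak. The median region had a ratio less the list's median of −0.71. The ratio was above the list's median in each list in 54 regions (17.1%) and below it in each list in 192. Genes with many regions weigh heavily in these counts. With only the most-read region of each of the 112 genes, the ratio was above in each list in 39 genes and below in each list in 29. norpA held 25 regions, IA-2 19, Fas1 and Mhc 12 each, apolpp 10 and trpl 9. All 25 regions of norpA and all 9 of trpl had a mean ratio below the list's median.

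The end regions with the highest ratios had few input reads, and their CLIP reads ran from low to high among the regions. For each gene the region with the most CLIP reads by mean rank was taken, and the genes were ordered by ratio. This ratio contains the input reads. Few input reads at the top of the order and many at the bottom thus follow in part from the choice. Coordinates are those of the deposited lists in dm6. The first was CG7985, at chr3R:18213401-18213450 (plus strand) and 1576 bp from the end of the span. It had 10, 367 and 181 CLIP reads in its single bin against 1, 4 and 3 input reads in replicates 1, 2 and 3. Its ratio lay 4.28 ± 1.84 above the list's median (SD, n = 3), and replicate 1 was the lowest of the 3. The region of shn (schnurri), a zinc finger transcription factor of the Dpp pathway, was at chr2R:11216151-11216200 (plus strand). It had 53, 158 and 7 CLIP reads against 2, 3 and 3 input reads. Replicate 3 was at the minimum for its list, and the ratio lay 3.05 ± 1.42 above. CG1677 followed at chrX:7285501-7285550 (minus strand). CLIP reads were 29.5, 84 and 15 there and input reads 1.73, 3 and 5. The long non-coding RNA lncRNA:CR44357 overlaps it, so its reads cannot be given to CG1677 alone.

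The most even of these regions was that of bun (bunched), a TSC22-domain transcription factor. It spans 5 bins at chr2L:12460701-12460950 (minus strand). CLIP reads per bin were 42.9, 108.6 and 17.3 in replicates 1, 2 and 3, against 6.95, 7.50 and 5.33 input reads, and the ratio lay 2.12 ± 0.17 above the list's median. SNF4Agamma, the gamma subunit of the energy sensor AMPK, had 19, 39.5 and 13 CLIP reads against 3.11, 3.46 and 1 input reads at chr3R:21200751-21200800 (plus strand), a ratio 2.31 ± 0.83 above. The region of bru1, an RNA-binding protein of the Bruno family, had 22, 30 and 14 CLIP reads against 2.45, 3 and 4 input reads at chr2L:12287651-12287700 (plus strand). In each of these regions CLIP exceeded input in all 3 lists. The other 4 of the 10 were Pvf1, a growth factor ligand, jing, a zinc finger protein, Msp300, a nuclear-envelope spectrin-repeat protein, and dnc, the cAMP phosphodiesterase, with ratios from 1.93 to 2.02 above. A long non-coding RNA gene, lncRNA:CR44886, overlaps the region of dnc. All 10 regions had fewer than 8 input reads per bin in each list. A region does not stand for the whole gene end: bun and Msp300 each had another end region with a mean ratio below the list's median, at −0.91 and −0.94.

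At the other end of this order, input reads were many. Argk1, arginine kinase, had a region of 1550 bp at chr3L:9048801-9050350 (minus strand). CLIP reads per bin were 40.5, 68.2 and 21.9 in replicates 1, 2 and 3 and input reads 96.7, 106.5 and 104.3, and its ratio less the list's median was −1.80 ± 0.41 (SD, n = 3). rsh (radish), a gene of olfactory memory, had 70, 278 and 130 CLIP reads against 146, 340 and 582 input reads at chrX:13073701-13073750 (plus strand) and a ratio of −1.61 ± 0.35. apolpp, the apolipoprotein of the main lipid carrier of fly blood, had −1.41 ± 0.41 at chr4:1075951-1076050 (plus strand). Tm1, a tropomyosin, had −1.69 ± 1.27, and Rtnl1, a reticulon of the endoplasmic reticulum, −1.36 ± 0.23. Input exceeded CLIP in each list in these 5 regions.

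**Figure D5:**
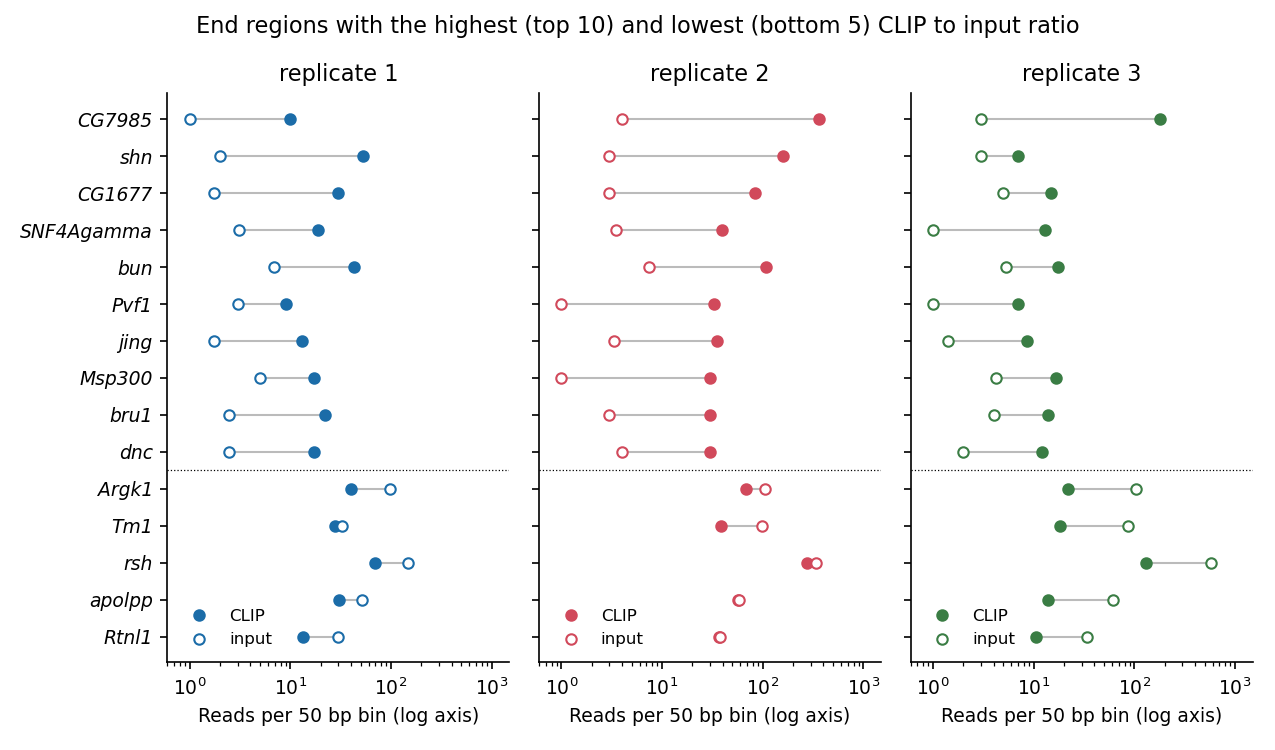
CLIP reads per bin (filled) and input reads per bin (open) on a log axis, with 1 panel per replicate. Each gene is represented by its end region with the most CLIP reads, and of these regions the 10 highest and 5 lowest by log2 CLIP to input ratio are shown. Other regions of a gene can have lower ratios. CLIP lies right of input in the upper 10 genes, as for bun with 42.9 against 6.95 reads in replicate 1, and left of it in the lower 5, as for Argk1 with 40.5 against 96.7.

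The strongest end peaks by CLIP reads alone, looked up after their values were seen, overlapped non-coding genes. In replicates 2 and 3 it was a peak in the span of Esyt2, at chr3R:24556051-24556200 (plus strand), where CLIP reads per bin were 2298 and 851 and input reads 274 and 351. The small nuclear RNA gene snRNA:U6:96Aa overlaps it, and replicate 1 had no end peak in Esyt2. U6 genes have near-identical copies, so the origin of these reads is uncertain. In replicate 1 it was a peak of 353 CLIP reads per bin in the span of blot, at chr3L:17400251-17401350 (minus strand), where lncRNA:noe lies. Its reads cannot be given to blot alone. Midpoints in a non-coding gene made up 2.64%, 5.82% and 5.91% of end peaks.

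Among the functional groups examined, signalling and RNA-binding genes had end peaks in each list most often. Of 27 genes of cAMP, calcium and kinase signalling with a usable peak, 10 (37.0%) had an end peak in each list, beside 10.3% of all these long genes. They were CASK, CaMKII, Cam, Galphao, Pka-C1, Pka-R1, Pkc53E, SERCA, dnc and norpA. Of 20 neuronal RNA-binding protein genes, 7 (35.0%) had one, namely Rbp6, Syp, bru1, mbl, mub, ps and shep. These groups also had start peaks in each list often, in 70.4% and 70.0% of their genes beside 48.2% of all. The groups differ from other genes in much besides, expression included, and were not tested against them.

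The ratios of both groups were below the list's median in replicate 1, and in replicates 2 and 3 only the signalling genes were below it. Less the list's median, the median ratio of end peaks was −0.34, −0.73 and −0.46 in the signalling genes in replicates 1, 2 and 3, close to the −0.26, −0.37 and −0.30 of all end peaks. In the RNA-binding protein genes it was −0.17, 0.12 and 0.94. Within that group mbl (muscleblind), a splicing factor, had 15, 43 and 8 CLIP reads per bin and 6, 5.66 and 5 input reads at chr2R:17375901-17375950 (plus strand), a ratio 1.05 ± 0.08 above the list's median (SD, n = 3). Syp (Syncrip), a regulator of mRNA localisation and translation, had 15.5, 101 and 10 CLIP reads against 9.17, 18 and 6 input reads at chr3R:20809501-20809550 (plus strand), 0.81 ± 0.27 above. At ps the sign differed between lists, with −0.85, −0.51 and 1.13.

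Ion channel genes had an end peak in each list in 5 of 20 cases (25.0%), beside 10.3% of all these long genes. They were SK, Sh, para, slo and trpl. The strongest region of para, at chrX:16461901-16461950 (minus strand), had 23, 54.6 and 8 CLIP reads per bin and 3.45, 3.75 and 4 input reads, 1.83 above the list's median. trpl, a light-activated channel, had 28.7, 65.8 and 24 CLIP reads against 60.8, 53.7 and 74 input reads at chr2R:9765151-9765200 (plus strand). Its ratio less the list's median was −1.23, −1.30 and −1.17. The 2 channels thus lay on opposite sides, with at most 4 input reads at para and at least 53.7 at trpl. Genes of the synaptic vesicle and active zone had 3 of 16 (18.8%), cpx, Snap25 and unc-13, and genes of the cytoskeleton and scaffolds 5 of 28 (17.9%), Mhc, Tm1, beta-Spec, shot and unc-104.

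Transcription factors were near the share of all genes, with 5 of 46 (10.9%), namely Eip75B, Eip93F, Pdp1, mamo and pros. The region of Eip75B, an ecdysone-responsive nuclear receptor, had 25.5, 63.5 and 11.8 CLIP reads per bin and 4.73, 5.35 and 5.70 input reads at chr3L:17961101-17961300 (minus strand). Its ratio lay 2.04, 1.76 and 1.35 above the list's median. pros (prospero), a homeodomain factor of neurons and their precursors, had 15, 126 and 7 CLIP reads against 7.94, 13 and 7 input reads, and its ratio lay 0.67, 1.60 and 0.42 above. Another end region of pros had a mean ratio of −0.95 less the list's median. Axon guidance and adhesion genes had 3 of 34 (8.82%), Fas1, Ptp99A and kirre, although 73.5% of them had a start peak in each list. Neurotransmitter receptors had 1 of 25 (4.00%), Rdl, the GABA-gated chloride channel, while 15 of them had a start peak in each list.

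Of 8 genes known for longer 3′ untranslated regions in neurons that had a usable peak, 2 (25.0%) had an end peak in each list, AGO1 and shep, beside 10.3% of all these long genes. Another 3, fne, mei-P26 and pum, had one in some list. Start peaks in each list were found in 62.5% of the group, beside 48.2% of all. The median ratio of the 37 end peaks of this group, from 5 genes, lay 0.87 ± 0.73 above the list's median (SD, n = 3). It was uneven between lists, from 0.051 in replicate 1, near the list's median, to 1.46 in replicate 2. None of the 10 genes of the m6A machinery had a span over 10 kb in the table used. Of the marker genes, Appl, Rdl and para of neurons, trpl and norpA of photoreceptors and Mhc and wupA of muscle had end peaks in each list, and so did apolpp and FASN1 of fat body. Among markers with a usable peak these were 3 of 7, 2 of 2, 2 of 4 and 2 of 3. The share of all these long genes was 10.3%. Averaged over the lists, the median ratio of end peaks less the list's median was −1.12 ± 0.16 for photoreceptor markers, −1.14 ± 0.80 for muscle markers and −1.19 ± 0.07 for fat body markers (SD, n = 3). It was 0.60 ± 0.88 for neuronal markers, with −0.37, 0.82 and 1.34 in replicates 1, 2 and 3. These ratios rest on few genes, and norpA alone gave 67 of the 89 end peaks of the photoreceptor markers. No glial marker had a span over 10 kb. The share of each cell type in the heads was not measured, and its part in these values was not tested.

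End peaks were found on all chromosomes with long-gene peaks. The X chromosome held 18.8%, 24.2% and 21.0% of end peaks in replicates 1, 2 and 3, against 16.5%, 17.4% and 15.8% of the other long-gene peaks. Without norpA the shares of end peaks were 18.1%, 21.7% and 17.2%. Chromosome 4 held 4.53%, 1.75% and 3.65% of end peaks, against 5.98%, 2.40% and 3.67% of the others.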

How the data were processed

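The authors deposited 1 peak list per replicate, with no header. The deposited signal of a peak is its mean CLIP reads per 50 bp bin, a deposited natural log gives the input reads per bin (a geometric mean in wide peaks), and the deposited p-value was used only to rank peaks. These meanings were inferred from the values and the labels. Whether 1 was added before the log is not known. Reads were mapped with STAR 2.7.5a to dm6, per the submitters' processing notes, and the peak caller is not given in the sources used here. Spans were taken from NCBI RefSeq (Release 6), a table that gives no strand or exons, so genes were oriented by most of their pooled peaks. Of 13218 peaks in long genes, 84 in 25 genes with a tie and 401 on the other strand were dropped, and 12733 were kept. Of the 602 genes with an end peak, 500 had peaks on 1 strand only.

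Medians per list were compared with Python 3.11.15, NumPy 2.4.6, pandas 2.3.3 and SciPy 1.17.1 by exact sign-flip permutation tests over lists, with Benjamini-Hochberg adjustment. The labels call the replicates biological. Classification and differences were first checked on simulated peaks. Named are the 10 highest and 5 lowest regions by ratio among the most-read regions (1 region per gene, in all 3 lists). Also named are the 10 genes with the highest minimum number of end peaks, examples from the functional groups, and peaks next to the 20% limit. Other genes were named after their values were seen. The peaks, lists and tests were chosen with earlier results of these data known. A few symbols of the groups had no match in the table. Alternatives covered span length, the limits of the end, p-value, width, strand, weighting by gene, overlap, pseudocount, replicate block and leaving out each replicate.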

Additional observations from a re-analysis of the deposited data

How the results depend on the processing

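Of 181 values recomputed under 18 alternative settings, no mean changed direction and 176 stayed within the limits set for change. Since no p could pass 0.05, this shows direction only. Of 146 recomputed differences, 140 had their direction in each list used and 6 did not. All 6 were against the middle: CLIP reads were equal in 1 list for spans over 5 kb, for 1-bin peaks and within genes, input reads were equal in 1 list for 1-bin peaks, and the overlap was higher at the end in 1 list without replicate 2 or 3. The number of genes with an end peak in each list, 146, was 230 for spans over 5 kb, 87 for spans over 20 kb and 50 when the 50% ranked best by p-value were kept, and ran from 167 without replicate 1 to 220 without replicate 3, by construction. The share of end peaks, 24.7%, was 16.0% for the last 10% of the span, by construction, and ran from 20.7% to 26.9% when each replicate was left out. Leaving out each replicate moved the ratio gap to the start between −1.89 and −1.73. Over all alternatives that gap ran from −1.93 to −1.03 and the gap to the middle from −0.98 to −0.27, smallest within genes. Without the replicate block, an exact permutation of 3 against 3 values gave p = 0.1, the smallest it allows, for both input differences, the ratio and the 1-bin share against the start. It gave 0.2 for overlap against the start and the 1-bin share against the middle, 0.4 for the ratio against the middle, 0.5 for CLIP reads against the start, and 0.6 for CLIP reads and overlap against the middle. At the 28 shared end intervals the mean log2 ratio was 0.72 with the replicate block and 0.68 with no replicate block. The deviations of CLIP and input with the same number correlated there at 0.175, −0.140 and 0.259. Those of unlike numbers ran from −0.275 to 0.122. With only 28 intervals, this check cannot decide whether the numbers pair the samples. Orientation from an annotated strand was not run. Depth limits what can be said of regions with no peak, since the lists give no reads there.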
